A study of Mus musculus with 9 samples.

Results

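Fc receptors and antigen uptake receptors are the surface proteins through which a dendritic cell takes up material for presentation to T cells. The set described here has 10 mouse genes chosen by name: the IgG receptors Fcgr1, Fcgr2b and Fcgr3, their signalling chain Fcer1g, the lectin receptors Mrc1, Ly75, Clec4a2 and Clec10a, and the scavenger receptors Msr1 and Cd36. All probe sets annotated with 1 of these symbols were taken from both value tables. This gave 13 of 12488 probe sets on the array design used in experiments 2 and 3, and 11 of 12654 on the design used in experiment 1. Together they make 14 probe set names, of which 10 are on both designs, and they cover 9 genes. Clec10a is paired with no probe set in the annotation used here and was not analysed.

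The arrays carried total RNA of mouse dendritic cells at day 10, 1 array per group and experiment. The groups are cells labelled CIITA-/-, lacking the activator of MHC class II genes, cells labelled IAb-/-, named for the beta chain of class II I-Ab (gene H2-Ab1), and wild-type B6 cells, with 3 arrays each. Each group has 1 array of experiment 1 and 2 arrays of the other design. The labels give no sex, age, pooling or culture condition, nor whether the arrays of a group come from separate mice, so a p-value reflects array-to-array spread alone, possibly technical.

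IgG receptors bind antibody-coated antigen. The activating receptors Fcgr1 and Fcgr3 signal through the tyrosine motif (ITAM) of their partner Fcer1g, whereas Fcgr2b carries an inhibitory tyrosine motif (ITIM) that recruits phosphatases. Lectin and scavenger receptors bind sugars, modified lipoproteins or dying cells directly, and dendritic cells are known to reduce many of them as they mature. In bulk RNA, fewer cells of a type and less RNA per cell cannot be told apart.

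Since CIITA acts at the upstream region of class II genes, that region is shown for a pair of class II genes and for Ly75, Fcgr1 and Fcgr3, whose letters match a motif searched. Each line holds the 150 bases before the annotated start, from RefSeq on GRCm38.p6, read 5′ to 3′ on the strand of the gene. Capitals mark CTGATTGG, letters of the class II Y box, in the first 3 lines, and the letters of the X box, further upstream, in the H2-Eb1 line. In the Fcgr lines they mark CTTCCTC, the reverse complement of GAGGAAG, a core that the myeloid factor PU.1 can bind.
H2-Aa, chr17:34287824-34287973, minus strand: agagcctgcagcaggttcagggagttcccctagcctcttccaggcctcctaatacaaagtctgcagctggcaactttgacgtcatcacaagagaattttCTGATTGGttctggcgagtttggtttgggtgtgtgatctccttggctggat
H2-Eb1, chr17:34305717-34305866, plus strand: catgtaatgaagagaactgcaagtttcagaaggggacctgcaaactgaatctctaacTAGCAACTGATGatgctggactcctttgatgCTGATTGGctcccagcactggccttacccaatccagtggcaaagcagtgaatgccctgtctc
Ly75, chr2:60383274-60383423, minus strand: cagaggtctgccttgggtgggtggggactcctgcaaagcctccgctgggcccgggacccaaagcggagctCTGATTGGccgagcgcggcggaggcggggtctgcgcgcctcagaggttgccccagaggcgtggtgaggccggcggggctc
Fcgr1, chr3:96293970-96294119, minus strand: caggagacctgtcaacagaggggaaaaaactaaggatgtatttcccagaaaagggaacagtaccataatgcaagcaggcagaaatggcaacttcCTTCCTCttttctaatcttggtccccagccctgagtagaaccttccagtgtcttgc
Fcgr3, chr1:171059404-171059553, minus strand: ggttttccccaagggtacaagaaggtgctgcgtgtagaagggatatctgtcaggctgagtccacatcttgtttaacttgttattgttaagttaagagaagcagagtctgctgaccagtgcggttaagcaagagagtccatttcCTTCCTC

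Upstream windows were available for 8 of the 10 genes, and the 250 bases before the start were searched on both strands. CTGATTGG was found in Ly75, 80 bases before the start, and in Cd36, 195 bases before it, against 3.83% of all 32851 windows. The X box letters were in none of the receptor windows and in 0.0457% of all. Of the class II genes shown they matched H2-Eb1 but not H2-Aa, so a missing match does not show that a window lacks an X box. GAGGAAG was found in Fcgr1, Fcgr3 and Mrc1, against 10.6% of all windows. Fcgr1 and Fcgr3 share the 10 letters TTCCTTCCTC upstream of their starts, a stretch that 132 of all windows hold. CCAAT, whose reverse complement lies within CTGATTGG, was found in Mrc1, Ly75 and Cd36, against 33.8% of all windows. The motifs were chosen after the values were seen, and a match describes letters only.

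Levels are deposited intensities in arbitrary units. On each array 21.0 to 26.4% of values are negative, as happens after background subtraction, and no detection calls were used here. A noise limit was therefore set at the size that 95% of the negative values of a table do not exceed, 1701 for experiments 2 and 3 and 2203 for experiment 1. A difference is given as log2 after raising values under the table's 30th percentile (123.5, or 93.2 in experiment 1) to that percentile, and was tested with limma (n = 2 per group, experiments 2 and 3 only). On these arrays 5 receptor probe sets lay above the noise limit on both arrays of at least 1 group: the brighter probe sets of Fcgr1, Fcer1g and Msr1 and the single probe sets of Fcgr2b and Ly75. Of all 13, 11 passed the filter of 2 arrays above the lower percentile and were tested. The other 2, the dimmer probe sets of Fcgr1 and Cd36, were below 0 in all but 1 of their values there.

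The label check and the state of the arrays set the frame. H2-Aa, the class II alpha chain, was at -1520 and -2254 on the CIITA-/- arrays of experiments 2 and 3, at 46977 and 29271 on the IAb-/- arrays and at 51407 and 53578 on the B6 arrays (CIITA-/- minus B6, limma adjusted p = 0.0081). The Ciita probe set lay under the noise limit on all 9 arrays. It was at 1822, 1601 and 1639 on the CIITA-/- arrays of experiments 1, 2 and 3. On the B6 arrays it was at 1045, 623 and 933, and on the IAb-/- arrays at 1224, 398 and 644. The CIITA-/- value was thus the highest in each experiment. In experiments 2 and 3 H2-Ab1 was at 16070 and 9621 on the IAb-/- arrays against 17261 and 21348 on the B6 arrays. The position of these probe sets relative to the deleted parts is unknown here, so they do not check those labels. Bright signals varied between the IAb-/- arrays, where the Cre spike-in read 99616 in experiment 2 and 58224 in experiment 3, against 71464 to 79408 on the other 4 arrays. Of 12 dendritic cell markers 11 lay above the noise limit on at least 1 array of experiments 2 and 3. Among them Itgax was at 33205 to 44986 and Ccl17 at 121797 to 199441 on those arrays, while Dpp4 stayed under the limit.

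Across the receptors, none was called in CIITA-/- against B6. Of 11 receptor probe sets tested 0 passed an adjusted p of 0.05 (limma, Benjamini-Hochberg over all 9312 probe sets) and 0 had an unadjusted p under 0.05. Over all probe sets 9 passed (0.0966%), 2 higher (0.0215%) and 7 lower (0.0752%), 0 with the experiment number as a block, and 5.86% had an unadjusted p under 0.05. The 9 genes, each by its brightest probe set, had a median log2 difference of 0.18, against 0.01 over all probe sets tested, with 6 values higher and 3 lower. That median was the value of Mrc1. Mrc1, Fcgr3 and Cd36, all among the higher values, lay under the noise limit on every array of experiments 2 and 3. In IAb-/- against B6 again 0 of 11 passed and 0 had an unadjusted p under 0.05, against 1 of 9312 (0.0107%; 0 with the block) and 4.31% of all. The median of the 9 genes was 0.13, against 0.01 over all, with 6 values higher and 3 lower. It was again the value of Mrc1, and Mrc1 and Cd36 were again among the higher values. Both comparisons use the same B6 arrays.

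**Figure D1:**
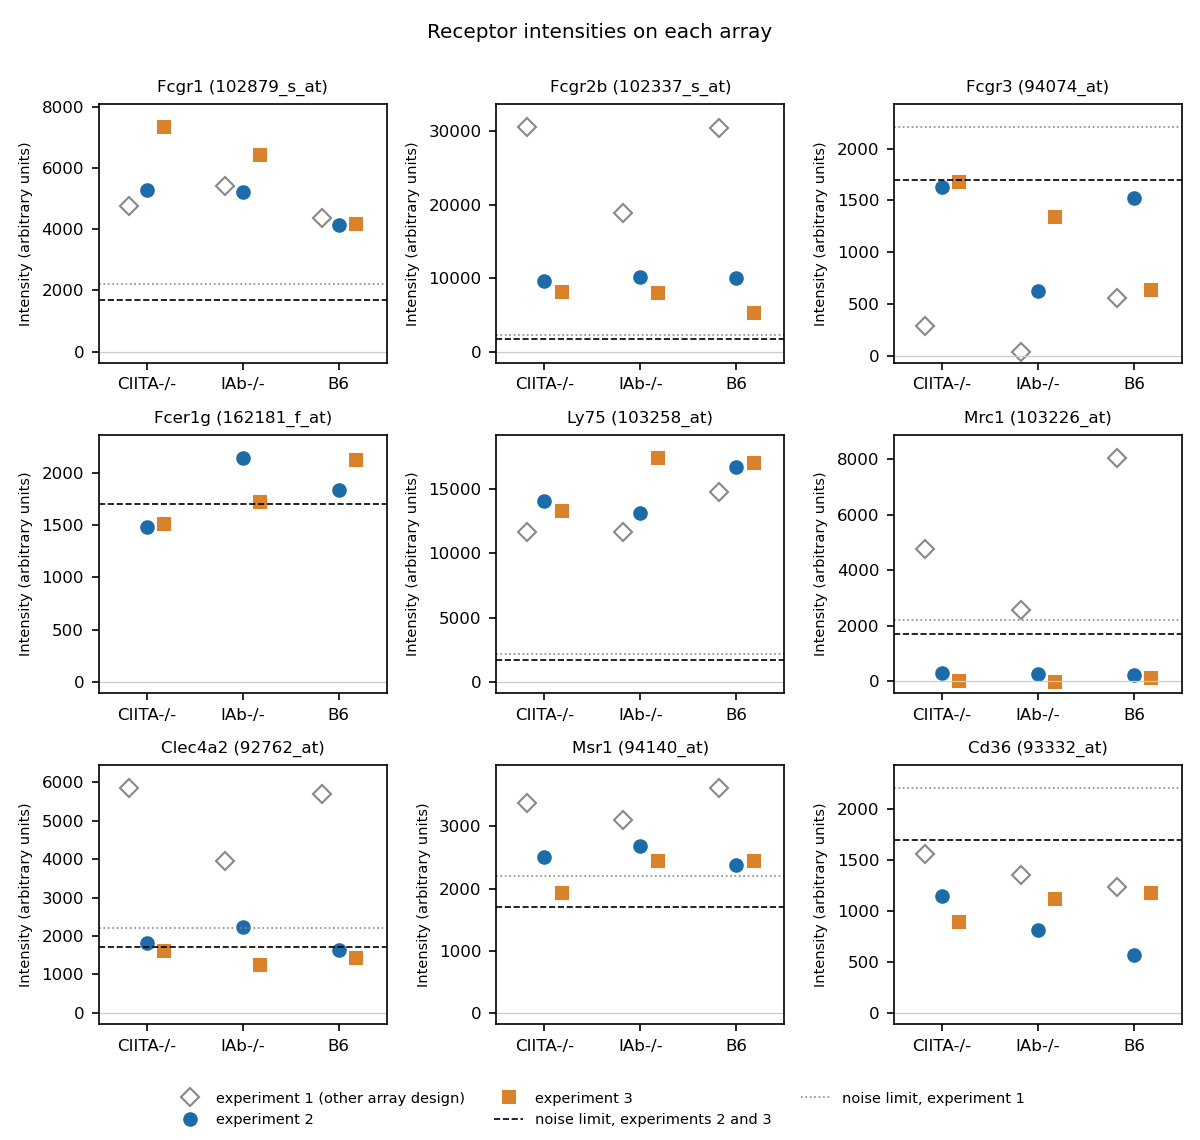
Intensity (arbitrary units, linear axis) of the brightest probe set of each of the 9 measured genes on every array, by group. Circles and squares are experiments 2 and 3, diamonds are experiment 1 on the other array design, and dashed and dotted lines are the noise limits of 1701 and 2203. Fcgr1 sits higher on the CIITA-/- and IAb-/- arrays than on the B6 array of the same experiment, and Mrc1 lies above the noise limit in experiment 1 only.

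Among the IgG receptors, Fcgr1, the high-affinity receptor known as CD64, had mutant and B6 values that did not overlap. Its brighter probe set was at 4767, 5285 and 7330 on the CIITA-/- arrays of experiments 1, 2 and 3, at 5401, 5211 and 6417 on the IAb-/- arrays, and at 4371, 4133 and 4176 on the B6 arrays. All 3 B6 values lay under every CIITA-/- and IAb-/- value, across both array designs, whose probes may differ. The share of all probe sets with such a separation over both designs was not counted. The CIITA-/- mean was 6307 ± 1446, against 4155 ± 30.5 in B6 (SD, n = 2 each), a log2 difference of 0.58 (SE 0.22, 95% interval -0.0029 to 1.17) that did not pass (limma adjusted p = 0.85). The IAb-/- mean was 5814 ± 853, with a log2 difference from B6 of 0.48 (SE 0.22, interval -0.11 to 1.06, adjusted p = 1).

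Within experiments 1, 2 and 3 the Fcgr1 log2 difference was 0.12, 0.35 and 0.81 for CIITA-/- and 0.31, 0.33 and 0.62 for IAb-/- against B6, higher in 3 of 3 experiments in both. Of 4 receptor probe sets on both designs and above noise in a group, Fcgr1 was the only 1 that was higher in all 3 experiments, for CIITA-/- as for IAb-/-. Among all such probe sets 17.3% were higher in all 3 for CIITA-/- and 14.2% for IAb-/-. On experiments 2 and 3 alone, 1 of 5 receptor probe sets lay wholly above B6 in CIITA-/-, where 23.6% of all did, and 1 of 5 in IAb-/-, where 17.5% did. Those shares are near the background. The brighter probe set has the suffix _s_at, which marks probes that can match several related transcripts, and the gene's dimmer probe set ran from -3054 to 220 over the 9 arrays, so the separation rests on 1 probe set.

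Macrophage markers were summed beside Fcgr1. The summed intensity of the 12 measured macrophage markers was 38525 and 43969 on the CIITA-/- arrays of experiments 2 and 3, 51074 and 38633 on the IAb-/- arrays, and 35399 and 30154 on the B6 arrays. The sums of both mutant groups lay above both B6 sums. In CIITA-/- the array with the higher sum also had the higher Fcgr1 value (7330 against 5285). In IAb-/- the array with the higher sum had the lower Fcgr1 value (5211 against 6417). Lyz2, lysozyme, made up much of each sum, at 17725 and 22732 in CIITA-/-, 27047 and 18616 in IAb-/- and 15191 and 14154 in B6. Cd68, Cd14 and Csf1r overlapped with B6 in both mutant groups, and 3 of 11 markers in CIITA-/- and 4 of 11 in IAb-/- were lower by value. Itgam lay wholly above B6 in both mutant groups in experiments 2 and 3 (log2 0.98 in CIITA-/- and 1.16 in IAb-/-). In experiment 1 Fcgr1 was higher in IAb-/- than in B6 (log2 0.31). There Cd68 and Itgam were lower by value (-0.44 and -0.48), as was Csf1r (10088 against 11967). Lyz2 was nearly level (-0.019) and Cd14 was higher (0.64). For CIITA-/- against B6 in experiment 1 Fcgr1 was higher (0.12), as were Itgam (0.17) and Lyz2 (0.11). Cd68 was lower there (-0.10), Cd14 was nearly level (-0.0014), and Csf1r was at 11619 against 11967. None of the 11 markers tested passed (limma; 1 had an unadjusted p under 0.05 in each comparison with B6). In experiments 2 and 3, 5 of the 12 lay above the noise limit on at least 1 array, namely Lyz2, Cd68, Cd14, Csf1r and Itgam. On those arrays Adgre1 reached at most 1093, Mertk 608, C1qa 610 and Marco 165, all under the limit. In experiment 1 Adgre1 was at 1936.8 in CIITA-/-, 2330.5 in IAb-/- and 3797.7 in B6. The IAb-/- and B6 values there lay above the limit of 2203. The part of these cells in the Fcgr1 values was not tested.

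**Figure D2:**
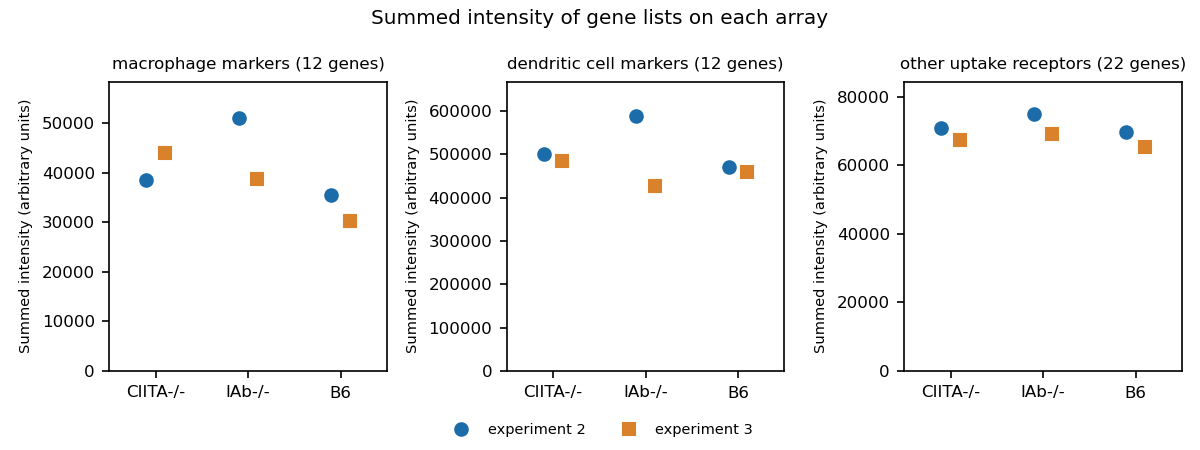
Summed intensity (arbitrary units, axis from 0) of 12 macrophage markers, 12 dendritic cell markers and 22 other uptake receptors on the 6 arrays of experiments 2 and 3, negative values counted as 0. Each point is 1 array. The macrophage sums of the CIITA-/- and IAb-/- arrays lie between 38525 and 51074, above the B6 sums of 35399 and 30154.

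Fcgr2b, the inhibitory IgG receptor, did not separate the groups. It was at 9671 and 8171 on the CIITA-/- arrays of experiments 2 and 3, at 10088 and 8042 on the IAb-/- arrays, and at 9953 and 5291 on the B6 arrays. The 6 values overlap, and the B6 array of experiment 3 is the lowest. The log2 difference from B6 was 0.29 for CIITA-/- (SE 0.35, 95% interval -0.63 to 1.21, limma adjusted p = 0.93) and 0.31 for IAb-/- (interval -0.61 to 1.23, adjusted p = 1). Without the B6 array of experiment 3 they were -0.16 and -0.14. In experiment 1 Fcgr2b was at 30529 in CIITA-/-, 18892 in IAb-/- and 30440 in B6, so that IAb-/- was lower by value there (log2 -0.69), opposite to experiment 3 (0.60). Its probe set also has the suffix _s_at, and the neighbouring Fcgr3, which encodes a closely similar extracellular part, may contribute to it.

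Fcgr3, the low-affinity activating receptor, stayed under the noise limit on all 9 arrays. It was at 289, 1625 and 1677 on the CIITA-/- arrays of experiments 1, 2 and 3, at 43, 625 and 1342 on the IAb-/- arrays, and at 560, 1526 and 635 on the B6 arrays. In experiments 2 and 3 the CIITA-/- values lay above those of both other groups, and in experiment 1 the CIITA-/- value lay under that of B6. Since all values are under the limit, its fitted differences compare values within the noise.

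Fcer1g, the gamma chain that Fcgr1 and Fcgr3 need for signalling, was measured near the limit. Its brighter probe set was at 1478 and 1506 on the CIITA-/- arrays of experiments 2 and 3, at 2140 and 1722 on the IAb-/- arrays, and at 1829 and 2117 on the B6 arrays. The CIITA-/- values lie under the noise limit and under all values of the other groups. The B6 mean was 1.16 times the limit. The log2 difference of CIITA-/- from B6 was -0.40 (SE 0.18, 95% interval -0.87 to 0.07) and did not pass (limma adjusted p = 0.91). For IAb-/- the log2 difference from B6 was -0.04 (interval -0.50 to 0.43, adjusted p = 1). Wholly lower values in CIITA-/- were found in 2 of 5 receptor probe sets, Fcer1g and Ly75, against 19% of all probe sets above noise. In IAb-/- they were found in 0 of 5, against 16.4% of all. It has the suffix _f_at, for probes shared by a family of similar sequences, and is not on the design of experiment 1. The gene's other probe sets, 1 at 184 to 600 in experiments 2 and 3 and 1 at -264 to 699 in experiment 1, were under the limit on every array.

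**Figure D3:**
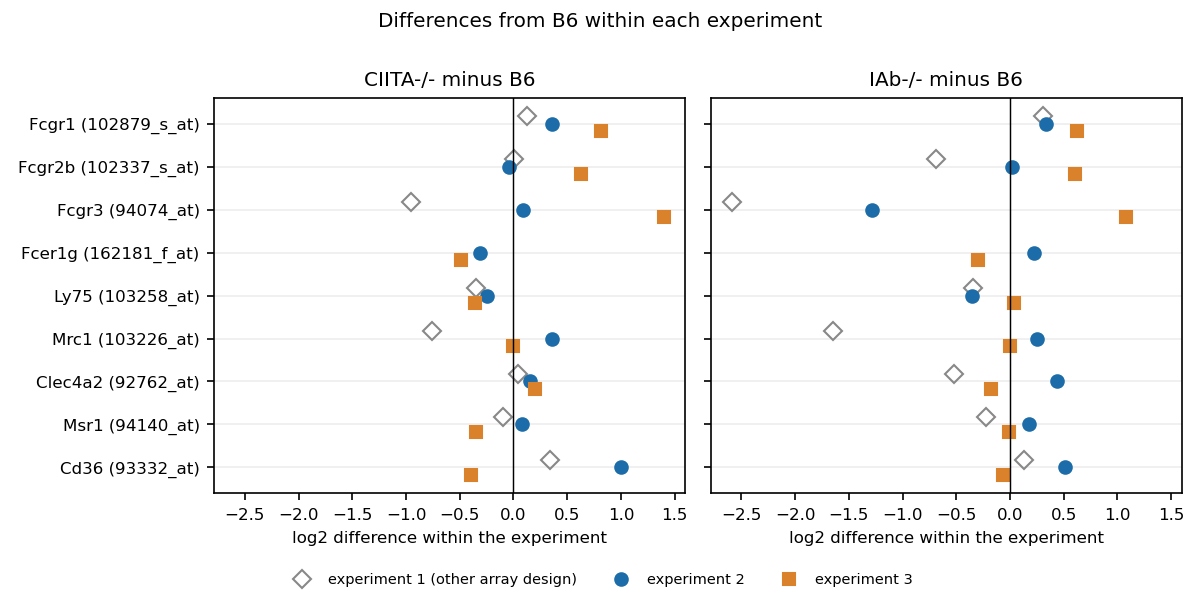
The log2 difference from B6 within each experiment (horizontal axis, floored scale) for CIITA-/- on the left and IAb-/- on the right, with 1 point per experiment and the brightest probe set of each gene. Fcgr1 lies right of 0 in all 3 experiments in both panels, and for CIITA-/- Clec4a2 lies right of 0 and Ly75 left of 0 in all 3. Fcgr3 and Cd36 were under the noise limit on every array, and Mrc1 on every array of experiments 2 and 3.

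Of the lectin receptors, Ly75 was well above noise on every array. Ly75 encodes DEC-205, an endocytic receptor that marks many mouse dendritic cells. It was at 11627, 14093 and 13280 on the CIITA-/- arrays of experiments 1, 2 and 3, at 11664, 13108 and 17406 on the IAb-/- arrays, and at 14788, 16708 and 16998 on the B6 arrays. The CIITA-/- array had the lower value in each experiment. The CIITA-/- mean was 13687 ± 575, against 16853 ± 204 in B6 (SD, n = 2 each), a log2 difference of -0.30 (SE 0.19, 95% interval -0.79 to 0.19, limma adjusted p = 0.93).

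The Ly75 difference within experiments 1, 2 and 3 was -0.35, -0.25 and -0.36 for CIITA-/- against B6. It was the only 1 of the 4 receptor probe sets lower in all 3 experiments, where 13.7% of all such probe sets were. For IAb-/- it was -0.34, -0.35 and 0.03, with a fitted log2 difference of -0.16 (interval -0.65 to 0.33, adjusted p = 1). None of the 4 receptor probe sets was lower in all 3 experiments in IAb-/-, against 14% of all. CIITA-/- and IAb-/- overlapped in Ly75 (CIITA-/- minus IAb-/- log2 -0.14, interval -0.64 to 0.35, adjusted p = 1). The interval for CIITA-/- against B6 leaves room for no difference and for a fall to 0.577 of the B6 level.

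Mrc1, the mannose receptor known as CD206, was above noise in experiment 1 and not in the others. Its probe set was at 4770 in CIITA-/-, 2565 in IAb-/- and 8051 in B6 in experiment 1, all above the noise limit. In experiments 2 and 3 it was at 300 and 25 on the CIITA-/- arrays, at 279 and -29 on the IAb-/- arrays and at 234 and 117 on the B6 arrays, all far under the limit. In experiment 1 the log2 difference from B6 was -0.76 for CIITA-/- and -1.65 for IAb-/-, from 1 array per group and with no replicate check.

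Clec4a2, a C-type lectin with an ITIM of its own, lay at the limit. It was at 1831 and 1622 on the CIITA-/- arrays of experiments 2 and 3, at 2233 and 1254 on the IAb-/- arrays and at 1648 and 1416 on the B6 arrays. In experiment 1 it was at 5843 in CIITA-/-, 3963 in IAb-/- and 5692 in B6. The difference from B6 within experiments 1, 2 and 3 was 0.04, 0.15 and 0.20 for CIITA-/-, and -0.52, 0.44 and -0.17 for IAb-/-. The CIITA-/- values were higher in 3 of 3 experiments and, in experiments 2 and 3, overlapped with B6. Neither difference passed (limma, log2 0.17 with adjusted p = 0.96 and log2 0.13 with adjusted p = 1).

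The scavenger receptors showed no separation of groups. In its brighter probe set Msr1, the class A receptor for modified lipoproteins, was at 3382, 2504 and 1928 on the CIITA-/- arrays of experiments 1, 2 and 3, at 3096, 2683 and 2438 on the IAb-/- arrays, and at 3609, 2373 and 2449 on the B6 arrays. The values overlap in experiments 2 and 3. The log2 difference from B6 was -0.13 for CIITA-/- (95% interval -0.62 to 0.35, limma adjusted p = 0.94) and 0.09 for IAb-/- (interval -0.40 to 0.57, adjusted p = 1). The gene's dimmer probe set was under the limit on all 9 arrays. Cd36, a class B receptor for oxidised lipoproteins and dying cells, was under the limit on every array, between 571 and 1558 in its brighter probe set and between -368 and -166 in the dimmer, which has the suffix _r_at.

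**Figure D4:**
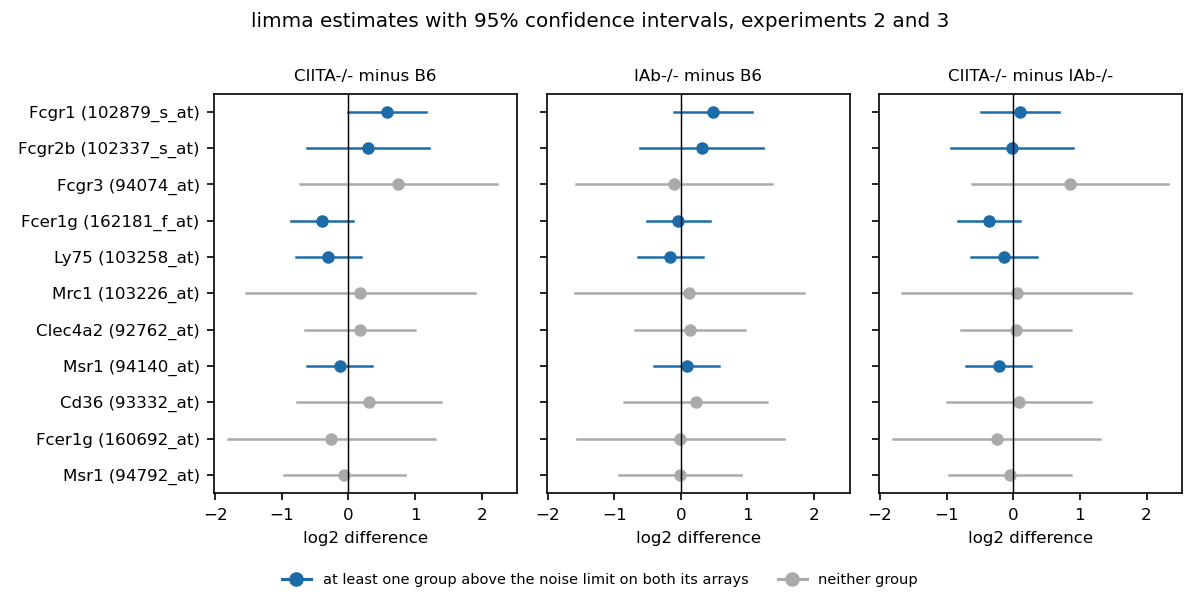
Fitted log2 differences (points) with 95% confidence intervals (bars) for the 11 receptor probe sets tested, from the limma fit of the 6 arrays of experiments 2 and 3. Blue marks probe sets above the noise limit on both arrays of at least 1 group compared, grey the others. Every interval reaches 0, and that of Fcgr1 in CIITA-/- minus B6 runs from -0.0029 to 1.17.

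Set directly against each other, the CIITA-/- and IAb-/- arrays gave 0 of 11 receptor calls and 0 with an unadjusted p under 0.05 (limma), against 2 of 9312 (0.0215%; 0 with the block) and 4.54% of all. Of the probe sets above noise 1 of 5, the brighter of Fcer1g, lay wholly lower in CIITA-/-, where 12.7% of all did, and 0 of 5 wholly higher, where 12.8% did. Of the 4 on both designs 0 were higher and 0 lower in all 3 experiments, against 12.5% and 13.9% of all. The log2 difference was 0.11 for Fcgr1 (95% interval -0.48 to 0.69), -0.02 for Fcgr2b (-0.94 to 0.90) and -0.22 for Msr1 (-0.70 to 0.26).

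Fcgr2b, Mrc1, Clec4a2 and the brighter probe set of Msr1 had higher values in experiment 1 than in the other experiments. So did the dimmer probe set of Msr1 and the brighter of Cd36, both under the noise limit on every array. Whether probe sets of the same name hold the same probes on both designs is not known here, so a ratio between designs may compare different probes. All 9 arrays have the same 2% trimmed mean of 2500, but experiment and array design change together, so their parts cannot be told apart. Over the 2876 probe sets above noise on all 9 arrays, the mean of experiment 1 was 1.15 times that of experiments 2 and 3 in the median. For Fcgr2b it was 3.12 times, a ratio that 10 of these probe sets reached (0.348%). Clec4a2, at 3963 to 5843 in experiment 1 and 1254 to 2233 in the others, has no ratio here because it was not above noise on all 9 arrays. Msr1 had a ratio of 1.40, Fcgr1 of 0.893 and Ly75 of 0.831. Of 3149 probe sets above noise on all 3 arrays of experiment 1, 27 lay under the limit on all 6 others (0.857%), Mrc1 among them.

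The summed macrophage markers were also higher in experiment 1. The 10 on both designs summed to between 99006 and 105712 in experiment 1 and to between 29176 and 50072 in experiments 2 and 3. The 4 above noise on all 9 arrays had ratios of 3.66 (Cd68), 3.40 (Csf1r), 2.48 (Cd14) and 2.34 (Lyz2). The dendritic cell markers summed to between 242574 and 287513 in experiment 1 and to between 425775 and 587692 in the others. That sum is carried by Ccl22 (ratio 0.109) and Ccl17 (0.152). The other dendritic cell markers above noise on all 9 arrays had ratios from 0.631 (Cd86) to 1.47 (Irf8), with Itgax at 1.01 and Irf4 at 1.04. Actin, at 25199 to 32467 in experiment 1 and 137677 to 210788 in the others, was lower there too. The part of macrophage markers, of the bright end or of the array design in the Fcgr2b and Mrc1 levels was not tested.

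The wider uptake pathway gave no calls either. Of 6 other Fc receptors tested 0 passed in either comparison with B6 (limma; 0 with an unadjusted p under 0.05). In experiments 2 and 3, 4 were never above noise, and the median log2 difference was 0.14 for CIITA-/- and 0.27 for IAb-/-. Fcgrt, which encodes the neonatal Fc receptor that recycles IgG, was at 8660 and 5125 on the CIITA-/- arrays of experiments 2 and 3, at 5021 and 4541 on the IAb-/- arrays and at 7880 and 4517 on the B6 arrays. Both mutant groups overlap with B6, while the CIITA-/- values lie above both IAb-/- values (log2 0.48, limma adjusted p = 1). Pigr, the polymeric immunoglobulin receptor, was at 1493 and 1959 in CIITA-/-, 2100 and 2098 in IAb-/- and 1306 and 1914 in B6. Of its values 1 of 2 in CIITA-/-, 2 of 2 in IAb-/- and 1 of 2 in B6 lay above the noise limit, so no fold is given.

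Of 18 ITAM and ITIM signalling genes tested 0 passed in either comparison with B6 (limma; 0 and 1 with an unadjusted p under 0.05), with a median log2 difference of 0.04 for CIITA-/- and -0.01 for IAb-/-, against 0.01 over all probe sets in both. Ptpn6, the phosphatase SHP-1 that ITIMs recruit, was at 3708 ± 449 in CIITA-/- and 4380 ± 580 in IAb-/-, against 5107 ± 217 in B6 (SD, n = 2 each). The log2 difference of CIITA-/- was -0.47 (limma adjusted p = 0.85), with -0.04 in experiment 1. Vav1, an exchange factor in ITAM signalling, was at 2965 ± 150 in IAb-/- against 2197 ± 82 in B6 (log2 0.43, adjusted p = 1; 0.16 in experiment 1). Sirpa, an ITIM-bearing receptor, had log2 differences of 0.35 in CIITA-/- and 0.34 in IAb-/- but -0.23 and -0.57 in experiment 1. Dok1, an adaptor that restrains tyrosine kinase signals, had log2 differences of -0.29 in CIITA-/- and -0.16 in IAb-/-, against 0.012 and 0.049 in experiment 1.

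Of 18 other uptake receptors tested 0 passed in either comparison with B6 (limma; 3 and 2 with an unadjusted p under 0.05). In experiments 2 and 3, 12 of the 22 measured were never above noise, and the median was 0.05 in both comparisons. Itgam, the alpha chain of complement receptor 3, was at 2124 and 3447 on the CIITA-/- arrays of experiments 2 and 3, at 3508 and 2680 on the IAb-/- arrays, and at 1341 and 1406 on the B6 arrays, with both B6 values under the noise limit. Both mutant groups lay wholly above B6, and neither difference passed (limma adjusted p = 0.78 and 0.85). The mean was 1.64 times the limit in CIITA-/- and 1.82 times in IAb-/-. Of all probe sets above noise in a group, 23.6% lay wholly above B6 in CIITA-/- and 17.5% in IAb-/-. In experiment 1 its log2 difference was 0.17 for CIITA-/- and -0.48 for IAb-/-. Itgam is also on the macrophage list. Lrp1, a large endocytic receptor, was at 8308 ± 1418 in IAb-/- against 5862 ± 1489 in B6 (log2 0.52, adjusted p = 1; 0.0052 in experiment 1). Olr1, a lectin-like receptor for oxidised lipoprotein, had a log2 difference of -0.34 in CIITA-/- (adjusted p = 0.93), and Tfrc, the transferrin receptor, had a log2 difference of 0.19 (adjusted p = 0.95), with the opposite sign in experiment 1 (-0.36).

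Of 24 genes of the uptake machinery, all above noise on some array, 0 passed in either comparison with B6 (limma; 0 with an unadjusted p under 0.05) and the medians were 0.03 for CIITA-/- and -0.01 for IAb-/-. Ap2m1, a subunit of the clathrin adaptor, was at 52495 ± 310 in CIITA-/- against 41681 ± 3597 in B6 (SD, n = 2 each; log2 0.34, limma adjusted p = 0.88), with a difference of -0.0031 in experiment 1. Rab5a, a regulator of early endosomes, had log2 differences of -0.19, -0.23 and -0.21 in experiments 1, 2 and 3 for CIITA-/- and -0.18, -0.30 and -0.07 for IAb-/-. Neither fitted difference passed (limma adjusted p = 0.93 for CIITA-/-). Of all probe sets on both designs and above noise in a group, 13.7% were lower in all 3 experiments for CIITA-/- and 14% for IAb-/-. Lamp1 and Lamp2, lysosome membrane proteins, had log2 differences of 0.30 and 0.24 in IAb-/- (limma adjusted p = 1 for both), and Lamp2 had -0.087 in experiment 1.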

How the data were processed

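The deposited tables hold 1 linear intensity per probe set and array; how the authors summarised probes into intensities is not given in these sources. Values were kept on the deposited scale, since every array had a 2% trimmed mean of 2500. Symbols come from the platform annotation (1 symbol for 10833 and 10276 probe sets, several for 396 and 363, left unnamed, and none for 1193 and 1949). Floored log2 values were fitted with limma 3.58.1 in R 4.3.3, 1 model over 3 groups with 3 residual degrees of freedom, tested on simulated data. Lists use the brightest probe set per gene, and those named are any called and up to 4 of smallest p above noise. The members, lists and noise limit were chosen with earlier results of these data known. Arrays were grouped by title; 1 CIITA-/- title holds no experiment number and was given 2, the number left. The titles' experiment numbers were taken as pairing arrays; deviations from group means correlated between groups at 0.05, 0.08 and 0.21. Alternatives were the floor, the filter, quantile normalization, the replicate block on 6 and on all 9 arrays, and leaving out each array. The number of arrays limits precision.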

Additional observations from a re-analysis of the deposited data

How the results depend on the processing

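No receptor was called under any alternative: 342 alternative values of 33 receptor differences gave 0 calls, the lowest adjusted p being 0.417 (limma), and 45 had the opposite sign. Over all probe sets, the calls for CIITA-/- minus B6, CIITA-/- minus IAb-/- and IAb-/- minus B6 numbered 9, 2 and 1. They were 3, 4 and 0 with the floor at the noise limit, 14, 7 and 5 with no filter, 10, 3 and 3 with quantile normalization, 0, 0 and 0 with the replicate block on 6 arrays, and 4, 3 and 0 with the block on all 9. Leaving out 1 array left 0 to 1, 0 to 1 and 0 to 0. The block changed no receptor call. The cause of these changes was not tested. The sign turned with the block on all 9 arrays for CIITA-/- minus B6 in Mrc1 (-0.13) and Msr1 (dimmer, 0.093), for IAb-/- minus B6 in Fcgr2b (-0.022), Mrc1 (-0.47), Clec4a2 (-0.086) and Msr1 (brighter, -0.017), and for CIITA-/- minus IAb-/- in Fcgr2b (0.22) and Msr1 (dimmer, 0.17). With the floor at the noise limit it turned for Clec4a2 in CIITA-/- minus IAb-/- (-0.14).

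Leaving out 1 array at a time turned the sign of these log2 differences, each given with its lowest and highest value, brighter and dimmer meaning probe sets of a gene with several. For CIITA-/- minus B6 they were Fcgr2b (-0.16 to 0.75), Mrc1 (-0.46 to 0.82), Fcer1g (dimmer, -1.11 to 0.60), Cd36 (-0.22 to 0.83), Msr1 (brighter, -0.32 to 0.055) and Msr1 (dimmer, -0.51 to 0.39). For IAb-/- minus B6 they were Fcgr2b (-0.14 to 0.77), Mrc1 (-0.46 to 0.72), Ly75 (-0.36 to 0.047), Fcer1g (dimmer, -0.24 to 0.22), Fcer1g (brighter, -0.19 to 0.12), Clec4a2 (-0.28 to 0.55), Cd36 (-0.30 to 0.74), Fcgr3 (-0.74 to 0.53) and Msr1 (dimmer, -0.21 to 0.19). For CIITA-/- minus IAb-/- they were Fcgr2b (-0.18 to 0.14), Fcgr1 (-0.13 to 0.34), Mrc1 (-0.59 to 0.69), Ly75 (-0.35 to 0.062), Fcer1g (dimmer, -1.10 to 0.60), Clec4a2 (-0.37 to 0.46), Cd36 (-0.15 to 0.31) and Msr1 (dimmer, -0.50 to 0.40). A lone array was assumed to vary like the other groups. Fcgr1 kept its sign in both comparisons with B6 (0.35 to 0.82 in CIITA-/-, 0.33 to 0.63 in IAb-/-) when 1 array was left out. Signal over noise limits Fcgr3, Cd36, Clec4a2 and, in experiments 2 and 3, Mrc1.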

Other observations

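Beside Mrc1, other genes above noise on all 3 arrays of experiment 1 and under the limit on all 6 others were Ccr2, a chemokine receptor of monocytes, Cd5l, a secreted macrophage protein, and Il1r2, a decoy receptor for interleukin 1. Among probe sets above noise on all 9 arrays, F10 and F7, coagulation factors, had ratios of experiment 1 to the others of 3.69 and 3.18, and Fbp1, a gluconeogenic enzyme, had 3.53. The highest ratios, 5.06 and 4.75, were of probe sets with several symbols, Klk1b genes (kallikrein family) among them. Klk1b11 had 3.32 and Klk1b1 had 3.18, and Klk1b5 was among the genes under the limit on all 6 others. These genes were picked after their values were seen, and experiment and array design cannot be told apart.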
